A study of Homo sapiens with 6 samples.

Results

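The mitochondrial ribosomal protein genes are the nuclear genes whose symbols begin with MRPL or MRPS followed by a number. All genes annotated as protein coding with such a symbol were taken, which gave 77 of the 24526 genes measured and of 15310 protein-coding genes. By the known structure of the human mitochondrial ribosome, 51 encode proteins of the large subunit and 25 proteins of the small subunit. The proteins of MRPS18A and MRPS30 belong to the large subunit in spite of their names. The remaining gene, MRPS36, encodes a protein now known as a component of the alpha-ketoglutarate dehydrogenase complex. A further 11 genes whose names begin in the same way, 8 pseudogenes and 3 lncRNAs, were not included.

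RNA was measured in WM266.4, an established human melanoma cell line, in 6 libraries made 48 h after transfection. The 3 neg.si libraries came from cells given Silencer Select Negative Control No. 2, an siRNA designed to have no human target, and the 3 RIPK4.si libraries from cells given Silencer Select siRNA against RIPK4. Such an RNA, a short duplex, leads to the destruction of the transcripts it pairs with, and RIPK4 is a kinase that acts in NF-κB and Wnt signalling. A single RIPK4 siRNA was used in a single cell line, so effects of the loss of RIPK4 and other effects of that siRNA cannot be told apart. The comparison shows how the transcripts of the mitochondrial ribosome stood in cells with less RIPK4.

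The mitochondrial ribosome translates the few messages encoded by the mitochondrial genome, all of which encode subunits of the respiratory chain and the ATP synthase. Its RNAs are transcribed inside the organelle, but each of its proteins is encoded in the nucleus, made in the cytosol and imported. Some of these proteins have counterparts in bacterial ribosomes, while others were added in the mitochondrial lineage. Melanoma cells differ among themselves in how far they rely on mitochondrial respiration, which depends on this ribosome.

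Library totals lay between 28464057 and 31688095 read pairs counted on genes. RIPK4 itself had 2656, 2298 and 1739 counts in the neg.si libraries (replicates 1, 2 and 3, the order used throughout). It had 585, 482 and 670 in the RIPK4.si libraries. Every RIPK4.si library lay below every neg.si library. In counts scaled to a common library size (CPM), RIPK4 fell from 72.3 ± 15.9 (SD, n = 3) to 19.4 ± 2.47 (SD, n = 3), a log2 fold change of RIPK4.si over neg.si of -1.90 (standard error 0.203, edgeR adjusted p = 0.0102). With a single library left out the estimate stayed between -2.06 and -1.74, but the adjusted p was 0.106 without neg.si replicate 2 and 0.0940, 0.0622 and 0.0725 without RIPK4.si replicates 1, 2 and 3, which ends the call. All 8 melanocytic marker genes examined were above 1 CPM in every library. Their summed level was 3574 to 4012 CPM in neg.si and 2635 to 2759 CPM in RIPK4.si, and its part in the results below was not tested. Among them edgeR called PMEL (log2 fold change -1.30, adjusted p = 0.0111, and up to 0.129 over the alternatives), and DESeq2 called PMEL (adjusted p = 4.36e-10), DCT (adjusted p = 0.00361) and TYR (adjusted p = 0.0417). The edgeR estimates were -0.73 for DCT, -0.57 for TYR, -0.48 for S100B and -0.15 for SOX10, and 0.36 for TYRP1, 0.06 for MLANA and 0.04 for MITF. With 1 library left out, S100B ran from -0.62 to -0.29 and SOX10 from -0.29 to -0.01, both nearest 0 without neg.si replicate 1, and TYRP1 from 0.24 (without RIPK4.si replicate 2) to 0.49. The sign of MLANA (-0.02 to 0.16) and MITF (-0.05 to 0.15) changed with the library left out. The 3 keratinocyte markers in the table summed to 10.2 to 11.6 CPM in neg.si and 11.8 to 16.1 CPM in RIPK4.si, nearly all of it KRT10, with KRT5 and KRT14 at 0 counts in 4 of the 6 libraries. The 3 white blood cell markers summed to at most 0.772 CPM and the 2 endothelial markers in the table to at most 1.56 CPM.

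Each member passed the filter on low counts, so all 77 were tested. Their totals over the 6 libraries ran from 82 counts for MRPL53 to 28697 for MRPS6, with a median of 6164. MRPL53 was the only member with fewer than 10 counts in a library. The genes are spread over 21 chromosomes.

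The level of each gene was set per kilobase of its main transcript, so that genes could be compared with each other. The median over the 77 genes was 21.9 CPM per kilobase in neg.si, with 24.6 for the large subunit and 15.6 for the small subunit. The highest was MRPS6, the counterpart of bacterial S6, at 172, 171 and 163 CPM per kilobase in neg.si replicates 1 to 3 and at 152, 210 and 150 in RIPK4.si. Its place rests on the transcript chosen, since over all annotated exons it ranked 10 of 77, and 33.1% of the main transcript overlaps other genes. MRPL40 and MRPL51, both proteins found in mitochondrial but not bacterial large subunits, followed. The level of MRPL40 was 166, 122 and 80.3 CPM per kilobase in neg.si and 111, 161 and 103 in RIPK4.si. The level of MRPL51 was 144, 98.8 and 71.3 in neg.si and 104, 124 and 85.0 in RIPK4.si. The neg.si ranges of neighbours in this order overlapped, but within each of the 6 libraries MRPS6 was above MRPL40 and MRPL40 above MRPL51.

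The lowest levels were those of MRPL53, MRPL46 and MRPS17, at 0.585, 0.816 and 1.75 CPM per kilobase on average in neg.si. MRPL53 lay between 0.391 and 0.762 CPM per kilobase in neg.si, MRPL46 between 0.540 and 1.02, and MRPS17 between 1.68 and 1.88. The ranges of MRPL53 and MRPL46 overlapped, and that of MRPS17, the counterpart of bacterial S17, lay above both. The place of MRPS17 rests on the transcript chosen, since over all annotated exons it ranked 72 of 77, above MRPS28, MRPS18C and MRPL23, while MRPL53 and MRPL46 were the lowest by either length. By default HTSeq leaves out reads that fall on exons of more than 1 gene, and strand was ignored here. Exons of other genes cover 99.2% of the main transcript of MRPL53 and 73.4% of that of MRPL46 in GENCODE release 44. MRPS5 (97.1% covered) had 19.1 CPM per kilobase in neg.si and MRPL38 (94.3% covered) had 19.9, near the median. The coordinates of both genes differ between release 44 and the deposited counts, so their overlap at the time of counting is uncertain. Whether overlap lowered the level of any member was not tested. In all, 40 members share exonic sequence with another gene, 30 of them within the main transcript. More than 50% of the main transcript was shared in 9 members, namely MRPL53, MRPS5, MRPL38, MRPS18C, MRPL46, MRPL12, MRPS18A, MRPS28 and MRPL2, and the levels of these are uncertain. The others that share exonic sequence, whose levels are uncertain too, are MRPL3, MRPL4, MRPL9, MRPL11, MRPL13, MRPL19, MRPL20, MRPL23, MRPL28, MRPL30, MRPL33, MRPL34, MRPL37, MRPL42, MRPL43, MRPL44, MRPL47, MRPL49, MRPL51, MRPS2, MRPS6, MRPS7, MRPS9, MRPS11, MRPS14, MRPS16, MRPS17, MRPS22, MRPS25, MRPS27 and MRPS34. A total of 7 members had a mean under 6 CPM in neg.si and the other 70 had at least 9 CPM.

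No mitochondrial ribosomal protein gene was called as changed in RIPK4.si. With edgeR's quasi-likelihood test and adjustment over the 16297 genes tested, 0 of 77 had an adjusted p under 0.05, against 0.767% of all genes. DESeq2 also called 0 of 77, against 2.78% of the genes it gave an adjusted p. At an unadjusted p under 0.05 there were 4 members with edgeR, or 5.19%, against 10.8% of all genes, and 3 with DESeq2, or 3.90%, against 7.3% of the genes it gave a p. DESeq2 gave a p to 24525 genes, and among the 16297 tested with edgeR 1642 had a DESeq2 p under 0.05. Of the 4 members found with edgeR, MRPL45 and MRPL53 were higher in RIPK4.si and MRPS9 and MRPL30 lower. The median log2 fold change of the 77 was -0.02, with quartiles of -0.14 and 0.08, and that of all genes was also -0.02. The fold change was above 0 for 32 members and below 0 for 45. In bulk RNA, a smaller number of cells of a kind and less RNA per cell cannot be told apart.

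**Figure D1:**
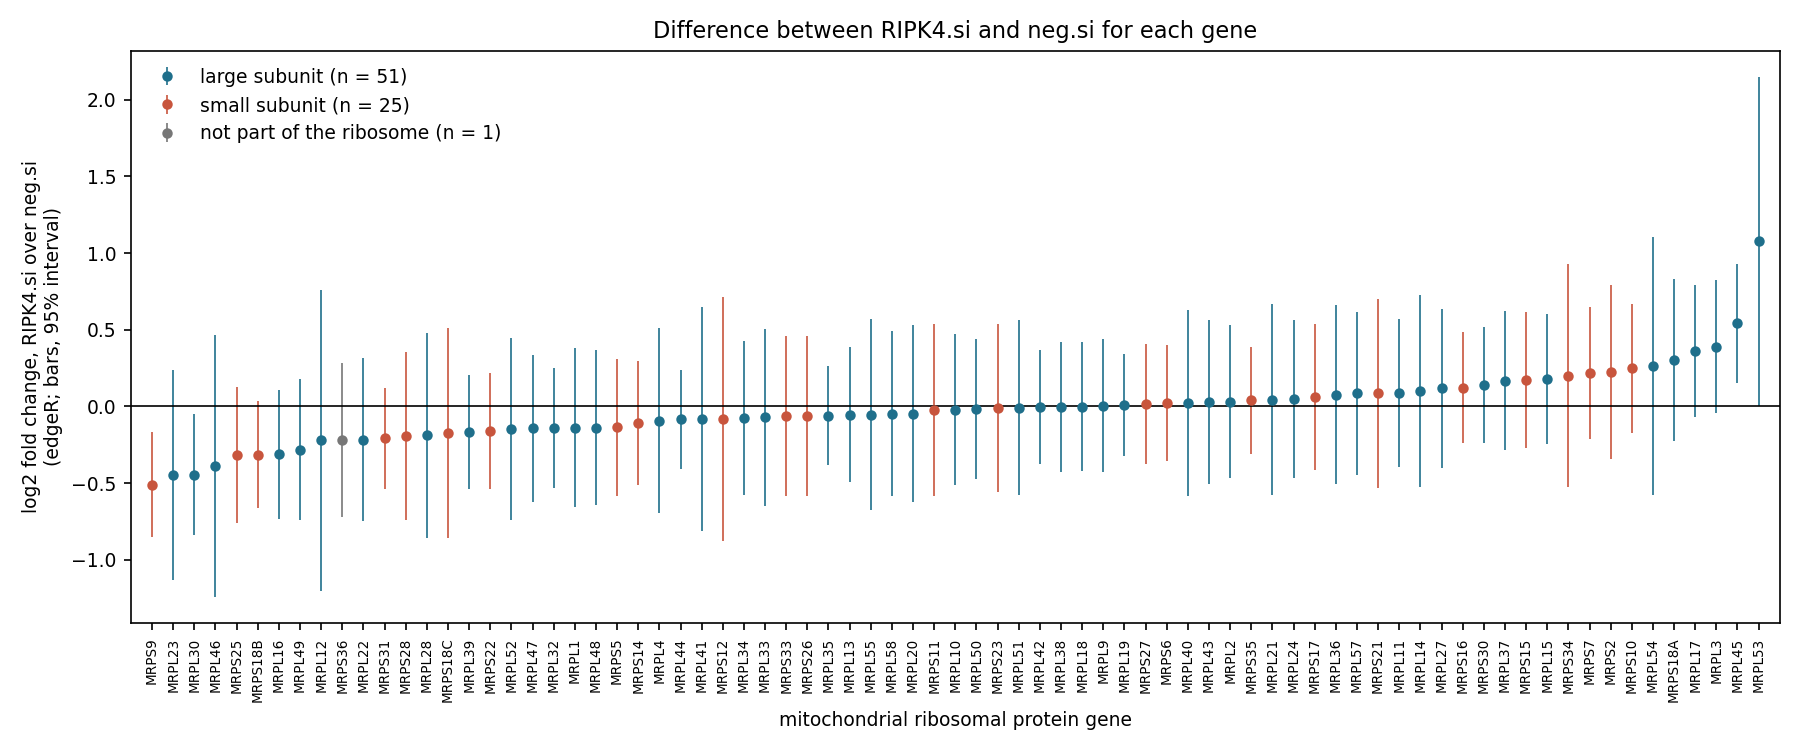
Log2 fold change of RIPK4.si over neg.si for each of the 77 genes, in order of size, with 95% intervals from the edgeR fit and colours for the subunits. The intervals of 4 genes leave out 0 before adjustment (MRPS9, MRPL30, MRPL45 and MRPL53), and the estimates of small subunit genes run from -0.51 to 0.25.

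The data also bound the size of a difference. The 95% interval of the fold change lay within 1.5-fold in either direction for 31 members, or 40.3%, against 29.4% of all genes tested. It lay within 2-fold for 72 members, or 93.5%, against 70.6% of all genes. MRPL53 was the only member with an estimate beyond 1.5-fold. The median standard error was 0.22 on the log2 scale for the members and 0.23 for all genes, which limits what 3 libraries a group can detect in a single gene.

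Both subunits gave like values. Among the 51 large subunit genes the median log2 fold change was -0.02, with 21 above 0, 30 below 0 and 3 at an unadjusted p under 0.05, or 5.88%, against 10.8% of all genes. Among the 25 small subunit genes it was also -0.02, with 11 above 0, 14 below 0 and 1 at that level, or 4%. The 45 genes with a bacterial counterpart had a median of -0.02 and 2 genes at an unadjusted p under 0.05, or 4.44%, and the 31 specific to mitochondria had -0.01 and 2 genes, or 6.45%. The estimates ran from -0.45 to 1.08 in the large subunit and from -0.51 to 0.25 in the small subunit. MRPS36, the member outside the ribosome, had 30.6, 27.1 and 18.7 CPM in neg.si and 20.9, 26.4 and 18.3 CPM in RIPK4.si, with overlapping groups and a log2 fold change of -0.22 (edgeR adjusted p = 0.844). That estimate went to -0.05 when neg.si replicate 1 was left out and to -0.40 when neg.si replicate 3 was, and lay between these for the other libraries.

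The summed level of the members overlapped between the groups. The members took 0.375%, 0.310% and 0.280% of all counts in neg.si replicates 1 to 3 and 0.319%, 0.353% and 0.294% in RIPK4.si, which is 0.322% ± 0.0487 against 0.322% ± 0.0296 (SD, n = 3 each). The RIPK4.si libraries lay within the range of the neg.si libraries. The summed CPM of large subunit genes over that of small subunit genes was 2.09, 2.03 and 1.89 in neg.si and 1.96, 2.19 and 2.05 in RIPK4.si, again with overlap. These means were 2.00 ± 0.0997 and 2.06 ± 0.117 (SD, n = 3 each).

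For 8 members, or 10.4%, the groups did not overlap, against 17.6% of all genes tested. MRPL45, MRPL53, MRPL3 and MRPL17 were higher in every RIPK4.si library than in every neg.si library, and MRPS9, MRPL30, MRPS18B and MRPS31 lower. All of the higher ones belong to the large subunit, and 3 of the lower ones to the small subunit. The share of members with groups apart was below the share over all genes, so these 8 are described gene by gene and not as a group result.

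MRPS9 encodes the counterpart of bacterial S9, a protein of the head of the small subunit, and lies at chromosome 2, 105038069 to 105099960, on the plus strand (GRCh38). It had 17.6, 16.6 and 17.3 CPM in neg.si and 12.4, 12.3 and 11.5 CPM in RIPK4.si. The 3 libraries of each group lay close together and the groups did not overlap. The log2 fold change was -0.51 (standard error 0.153, 95% interval -0.85 to -0.17), with an unadjusted p of 0.00822 and an adjusted p of 0.212 from edgeR. DESeq2 gave an adjusted p of 0.159, and over all alternatives it ran from 0.0465 to 0.779. The estimate itself stayed between -0.52 and -0.47 over those alternatives. The lowest adjusted p was obtained with the trends on GC content and transcript length removed, a step added after the data were seen. MRPS9-AS1 on the opposite strand covers part of the gene, and 24.0% of the main transcript overlaps its exons.

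MRPL45 encodes a protein specific to mitochondria that sits at the exit of the peptide tunnel and anchors the ribosome to the inner membrane. It lies at chromosome 17, 38297023 to 38323217, on the plus strand, and no other gene overlaps its exons. Its level was 43.1, 35.1 and 31.1 CPM in neg.si and 52.3, 59.1 and 47.8 CPM in RIPK4.si. The highest neg.si library, replicate 1, was still below the lowest RIPK4.si library, replicate 3. The log2 fold change was 0.54 (standard error 0.172, 95% interval 0.15 to 0.93), with an unadjusted p of 0.0113 and an adjusted p of 0.246 from edgeR. Over the alternatives the adjusted p ran from 0.0834 to 0.723. The pseudogenes MRPL45P1 and MRPL45P2 had 66 and 558 counts in total against 8106 for MRPL45. How reads that match more than 1 of these copies were counted was not tested.

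MRPL30 (chromosome 2, 99181152 to 99199561), the counterpart of bacterial L30 in the large subunit, had 31.4, 39.0 and 46.1 CPM in neg.si and 27.1, 29.4 and 29.0 CPM in RIPK4.si. The neg.si libraries were spread and the RIPK4.si libraries lay together, just below the lowest of them. The log2 fold change was -0.45 (standard error 0.175, edgeR adjusted p = 0.374). Annotated exons of other genes on the same strand cover 12.7% of its main transcript. MRPL53 (chromosome 2, 74471982 to 74472687), whose protein is specific to mitochondria, had 6, 9 and 12 counts in neg.si and 28, 13 and 14 in RIPK4.si. The groups were apart by a single count, and RIPK4.si replicate 1 stood alone above the rest. Its log2 fold change was 1.08 (standard error 0.477, edgeR adjusted p = 0.459), and 0.63 without RIPK4.si replicate 1.

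MRPS18B (chromosome 6, 30617840 to 30626395), a relative of bacterial S18 in the small subunit, had 55.8, 60.4 and 55.0 CPM in neg.si and 51.2, 39.3 and 47.1 CPM in RIPK4.si. All RIPK4.si libraries were lower, replicate 2 most of all, with a log2 fold change of -0.31 (standard error 0.154, edgeR adjusted p = 0.524), and -0.21 without that library. MRPL3 (chromosome 3, 131462212 to 131502983), the counterpart of bacterial L3, had 140, 124 and 112 CPM in neg.si and 142, 211 and 140 CPM in RIPK4.si. Here RIPK4.si replicate 2 stood high while the others were level with neg.si replicate 1, and the log2 fold change was 0.39 (standard error 0.193, edgeR adjusted p = 0.531), and 0.18 without that library. MRPL17 (chromosome 11, 6680385 to 6683340), the counterpart of bacterial L17, had 69.0, 59.1 and 42.1 CPM in neg.si and 71.2, 77.7 and 70.0 CPM in RIPK4.si. The distance between the groups was about 1 CPM at its nearest, and the log2 fold change was 0.36 (standard error 0.191, edgeR adjusted p = 0.564), and 0.19 without neg.si replicate 3. MRPS31 (chromosome 13, 40729128 to 40771190), a small subunit protein specific to mitochondria that is described because its groups were seen to be apart, had 34.3, 30.0 and 31.4 CPM in neg.si and 28.9, 27.6 and 26.5 CPM in RIPK4.si. All RIPK4.si libraries were a little lower, with a log2 fold change of -0.21 (standard error 0.146, edgeR adjusted p = 0.733), and -0.13 without neg.si replicate 1. Its pseudogenes MRPS31P4 and MRPS31P5 had 145 and 89 counts in total against 5429 for MRPS31, and the counting of reads that match several copies was not tested here either.

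The remaining genes in this order had overlapping groups. MRPL16 (chromosome 11, 59806140 to 59810778), the counterpart of bacterial L16, had 40.6, 34.1 and 28.4 CPM in neg.si and 32.4, 25.6 and 25.01 CPM in RIPK4.si, with an edgeR adjusted p of 0.646. MRPS25 (chromosome 3, 15042460 to 15065317), found in mitochondrial small subunits and overlapping NR2C2 on the opposite strand, had 70.9, 48.2 and 51.8 CPM in neg.si and 53.9, 44.3 and 39.0 CPM in RIPK4.si, with 0.667. MRPS10 (chromosome 6, 42206807 to 42217861), the counterpart of bacterial S10, had 24.7, 28.6 and 38.4 CPM in neg.si and 37.5, 34.5 and 37.1 CPM in RIPK4.si, with 0.759. In MRPL16 and MRPS25 it was neg.si replicate 1 that stood highest, and in MRPS10 the same library stood lowest. Without neg.si replicate 1 their log2 fold changes went from -0.31 to -0.16, from -0.32 to -0.11 and from 0.25 to 0.14, and that of MRPS10 was 0.45 without neg.si replicate 3.

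**Figure D2:**
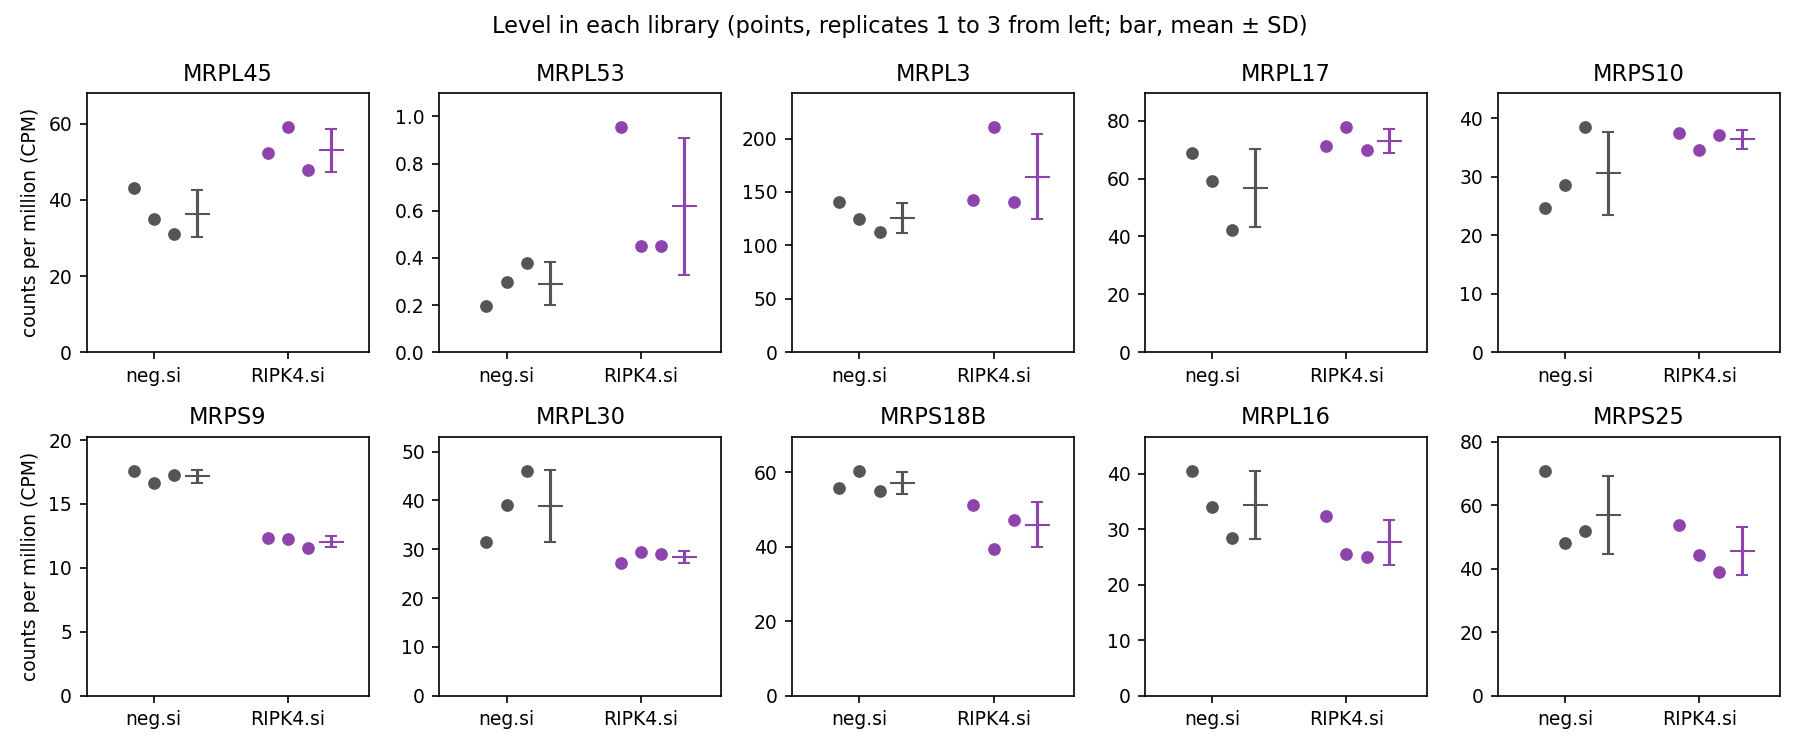
Level in CPM in each of the 6 libraries for the 5 genes with a higher and the 5 with a lower estimate in RIPK4.si and the smallest unadjusted p, with points for replicates 1 to 3 from left to right and a bar for the mean ± SD of each group. Groups are apart in the first 4 genes of the upper row and the first 3 of the lower row, and the 3 libraries of each group lie close together for MRPS9.

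The DNA just upstream of 5 of these 10 genes is shown, since the promoters of mitochondrial ribosomal protein genes are known for sites of shared transcription factors, among them NRF1, ETS proteins and YY1. Each stretch is the 150 bases before the gene start in RefSeq (GRCh38.p14), read 5′ to 3′ on the strand of the gene, for those of the 10 in which no annotated exon reaches into these bases. Capitals mark GCGCATGC, the core of the NRF1 motif, or its reverse complement. They are chr2:105037919-105038068 (plus strand) for MRPS9, chr6:30617690-30617839 (plus) for MRPS18B, chr11:6683341-6683490 (minus) for MRPL17, chr11:59810779-59810928 (minus) for MRPL16 and chr6:42217862-42218011 (minus) for MRPS10.
MRPS9: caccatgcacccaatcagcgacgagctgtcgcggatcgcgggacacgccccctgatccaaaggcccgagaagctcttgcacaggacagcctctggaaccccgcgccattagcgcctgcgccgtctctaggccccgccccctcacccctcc
MRPS18B: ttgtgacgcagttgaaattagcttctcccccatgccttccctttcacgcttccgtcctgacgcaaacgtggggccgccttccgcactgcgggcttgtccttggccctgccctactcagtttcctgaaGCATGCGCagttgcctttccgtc
MRPL17: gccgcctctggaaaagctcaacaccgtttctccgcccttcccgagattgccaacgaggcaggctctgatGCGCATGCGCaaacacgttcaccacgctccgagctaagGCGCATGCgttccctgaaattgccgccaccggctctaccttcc
MRPL16: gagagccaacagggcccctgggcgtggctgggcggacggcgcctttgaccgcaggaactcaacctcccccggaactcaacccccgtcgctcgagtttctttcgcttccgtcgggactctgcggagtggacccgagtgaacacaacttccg
MRPS10: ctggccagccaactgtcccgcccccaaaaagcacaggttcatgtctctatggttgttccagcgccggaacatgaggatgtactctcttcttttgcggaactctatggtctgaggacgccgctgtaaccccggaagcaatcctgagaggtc

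The motif was found 3 times before MRPL17, 2 of them overlapping, and 1 time before MRPS18B. None of these 5 stretches held the other motifs searched, CCGGAAGT of ETS proteins and AAGATGGC of YY1, on either strand. The estimates of MRPL17 and MRPS18B, 0.36 and -0.31, had opposite signs. A match is a description of the letters and not a site in use.

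Over the windows from 250 bases before to 50 bases after the gene start, which RefSeq gave for 68 members, the YY1 motif was the most frequent of the 3 searched, which were chosen from general knowledge. It was present in 19 windows, or 27.9%, against 3.53% of the 22199 windows of protein-coding genes and 2.89% of all 35116 promoter windows of that length. In 14 of the 19 it lay after the gene start. The ETS motif was present in 11 windows, or 16.2%, against 5.34% of protein-coding genes and 4.14% of all, and the NRF1 motif in 6, or 8.82%, against 3.74% and 3.05%. At least 1 of the 3 motifs was found in 27 windows, or 39.7%, against 11.6% and 9.36%, and at least 2 in 8, or 11.8%, against 0.960% and 0.698%. The median log2 fold change of members with the YY1 motif was -0.01 and of those without it -0.02. With the ETS motif it was -0.01 and without it -0.02. For the 6 members with the NRF1 motif (MRPL17, MRPL22, MRPL32, MRPL52, MRPS18B and MRPS18C) the median was -0.16, and for those without it -0.01. With 1 library left out, the estimates of MRPL22, MRPL32, MRPL52 and MRPS18C, all negative in the fit reported, reached 0.003, 0.0003, 0.24 and 0.09. Those of MRPL17 (0.19 to 0.54) and MRPS18B (-0.39 to -0.21) kept their signs. The level of MRPS18C is uncertain, as given above.

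The members' median level differed more between single control libraries than between the groups. Relative to each gene's mean over the 6 libraries, their median log2 level was 0.35, -0.03 and -0.31 in neg.si. In RIPK4.si it was -0.04, 0.19 and -0.14. The medians of all genes tested stayed between -0.01 and 0.02. Replicate 1 was the highest of the neg.si libraries for 64 of 77 members (83.1%, against 38.8% of all genes), and replicate 3 the lowest for 64 members (83.1%, against 42.7%). Among the RIPK4.si libraries, replicate 2 was the highest for 62 members (80.5%, against 40.2%). The SD over replicates had a median of 0.36 on the log2 scale in neg.si and 0.21 in RIPK4.si, against 0.30 and 0.21 for all genes tested. It was larger in neg.si for 58 of the 77 members (75.3%, against 63.9% of all genes).

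**Figure D3:**
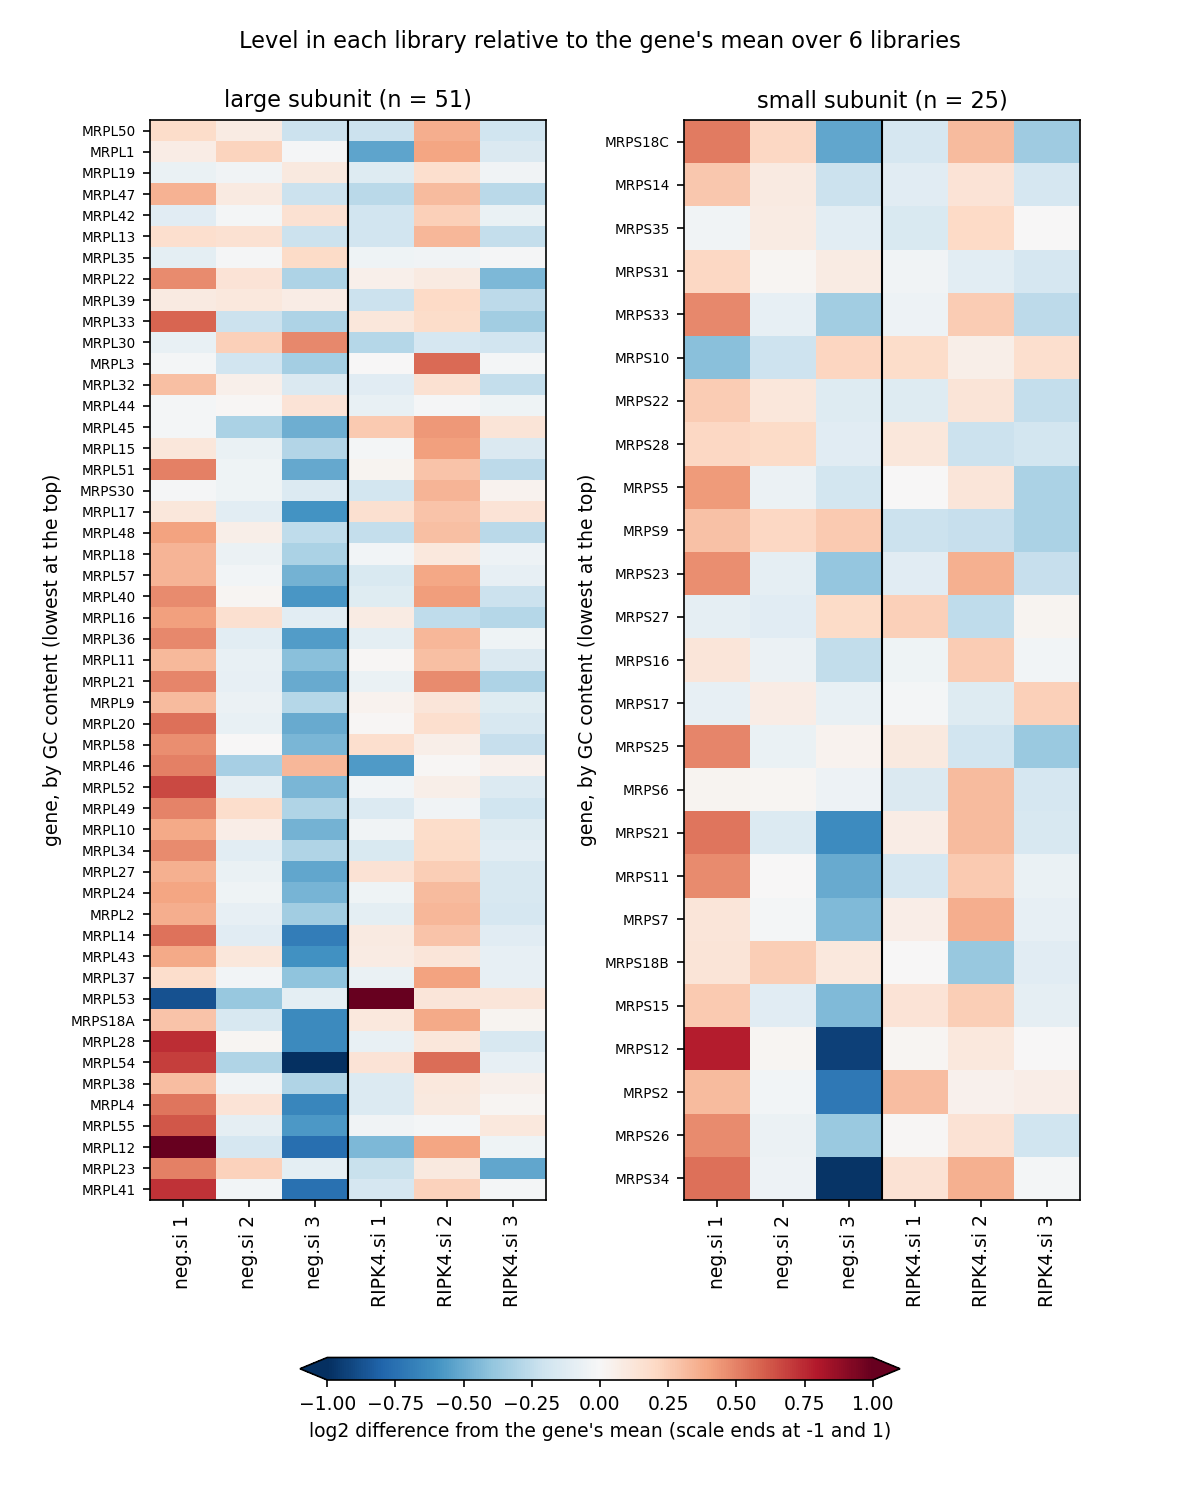
Log2 level in each library relative to the gene's mean over the 6 libraries, for the 51 large subunit and the 25 small subunit genes, with red above and blue below the mean and genes in order of GC content. The first column is mostly red, the third mostly blue and the fifth mostly red in both subunits.

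The order was seen in each subunit. Large subunit genes had medians of 0.36, -0.04 and -0.34 in neg.si replicates 1 to 3, and small subunit genes 0.27, -0.02 and -0.21. Between neg.si replicate 1 and replicate 3 the log2 ratio was above 0 for 68 members and above 1 for 17, with a median of 0.66. It was highest for MRPL12, a protein of the stalk that binds translation factors, which had 5.84, 2.53 and 1.67 CPM in neg.si and a log2 ratio of 1.77. It was lowest for MRPL53, at -0.77. MRPS34, at 47.5, 31.4 and 16.4 CPM, and MRPL54, at 33.3, 16.7 and 10.3 CPM, were others with wide spread, while MRPS9 had a log2 ratio of 0.03. MRPL12 is also 1 of the members with uncertain levels.

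GC content moved with this difference. Across the 77 members the log2 ratio of neg.si replicate 1 over replicate 3 had a Spearman correlation of 0.588 and a Pearson correlation of 0.575 with the GC content of the main transcript. Over 16239 genes tested that have a GC content, the Spearman correlation was 0.643. The genes share the same pair of libraries and are no independent replicates. Transcript length moved with it as well (Spearman correlation -0.436 across the members), and GC content and length were themselves related (-0.512). The GC content of the members ran from 34.8% to 66.7% with a median of 48.04%, near the 48.5% of all genes, and their median transcript of 1260 bases was shorter than the 2905 bases of all genes.

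**Figure D4:**
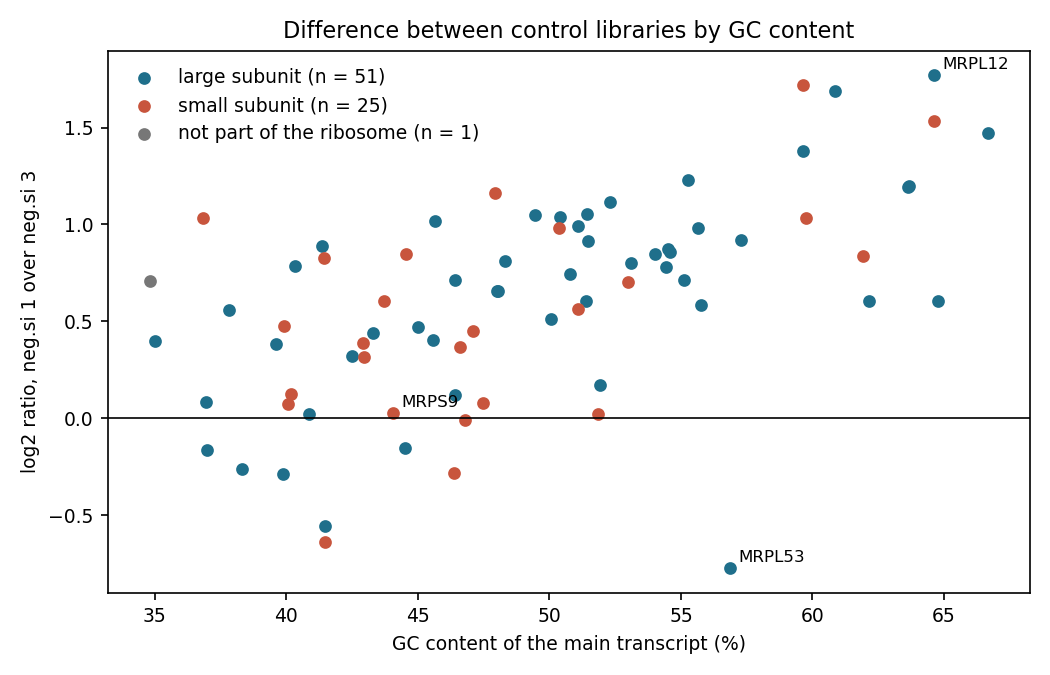
Log2 ratio of neg.si replicate 1 over neg.si replicate 3 against GC content of the main transcript for the 77 members, with colours for the subunits. Members with more GC tend to have higher ratios (Spearman correlation 0.588), and MRPL53, with few counts, lies apart at -0.77.

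Removing each library's trend on GC content left most of the difference for the members. Their median log2 ratio of neg.si replicate 1 over replicate 3 went from 0.66 to 0.63, to 0.47 with the trend on length removed and to 0.57 with both removed, and 68 of 77 were above 0 in the last case also. Their median SD in neg.si was 0.35 with the GC trend removed, while that of all genes went from 0.30 to 0.21. What else set neg.si replicate 1 and replicate 3 apart was not tested.

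Other groups of nuclear genes had a like pattern. The 77 cytosolic ribosomal protein genes had medians of 0.37, -0.05 and -0.56 in neg.si and 0.04, 0.34 and -0.15 in RIPK4.si, and 35 genes of respiratory complex I had 0.32, -0.02 and -0.35 and -0.07, 0.24 and -0.16. Their median transcripts were 785 and 696 bases long. With the trend on length removed, the cytosolic group had medians of 0.29 and -0.52 in neg.si replicates 1 and 3. The complex I group had 0.31 and -0.37. The 13 protein genes of the mitochondrial genome, which the mitochondrial ribosome translates, had -0.18, 0.20 and -0.15 in neg.si and -0.30, 0.31 and 0.10 in RIPK4.si. They were below 0 in neg.si replicate 1, where the members were above it, and above 0 in RIPK4.si replicate 2, as the members were. No member of the cytosolic, complex I or mitochondrial genome groups was called between RIPK4.si and neg.si by edgeR or DESeq2. Over all genes edgeR called 0.767%, and DESeq2 2.78% of those it gave an adjusted p. With edgeR 1, 0 and 0 had an unadjusted p under 0.05 (against 10.8% of all genes), and with DESeq2 2, 0 and 0 did (against 7.3%).

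**Figure D5:**
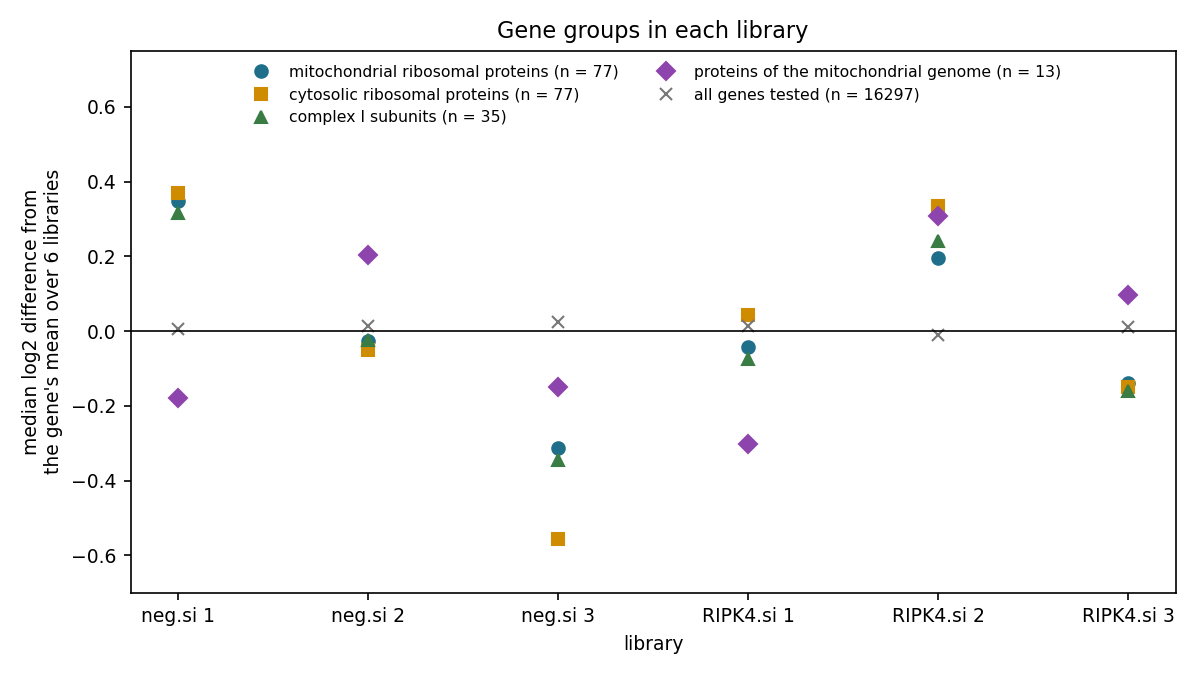
Median log2 level relative to each gene's mean over the 6 libraries, for 77 mitochondrial ribosomal protein genes, 77 cytosolic ribosomal protein genes, 35 complex I genes, 13 protein genes of the mitochondrial genome and all 16297 genes tested. The first 3 groups are highest in neg.si replicate 1 and lowest in neg.si replicate 3, and all genes together stay near 0.

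The sign of the members' median fold change changed with single libraries. It was -0.02 over the 6 libraries, 0.21 without neg.si replicate 1 (58 of 77 above 0) and -0.18 without neg.si replicate 3 (19 of 77 above 0). Without RIPK4.si replicate 2 it was -0.13 (18 of 77 above 0). Without neg.si replicate 2, RIPK4.si replicate 1 or RIPK4.si replicate 3 it was -0.03, 0.01 and 0.04. In each of these fits 0 members were called, but few or no genes were called in all, so that count says little about the members. Between 1 and 9 members had an unadjusted p under 0.05, a smaller share than over all genes in each fit. The largest of those counts, 9, or 11.7%, was found without neg.si replicate 1, against 13.5% of all genes in that fit, and 7, or 9.09%, without neg.si replicate 3, against 14.3%. Without neg.si replicate 2 it was 2.60% of members against 6.88% of all genes. Without RIPK4.si replicates 1, 2 and 3 it was 2.60%, 3.90% and 1.30% of members against 8.54%, 8.73% and 6.48% of all genes.

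The partners of the ribosome showed no called change either. Of 76 genes listed for ribosomal proteins with other names, assembly, translation factors, expression of the mitochondrial genome and its regulators, 72 were tested, and edgeR and DESeq2 each called 0. Over all genes edgeR called 0.767%, and DESeq2 2.78% of those it gave an adjusted p, so few calls among 72 genes would be made at these shares. The median log2 fold change was -0.04, with 29 above 0 and 43 below 0. At an unadjusted p under 0.05 there were 4 with edgeR, or 5.56%, against 10.8% of all genes, all of them lower in RIPK4.si. There were 3 with DESeq2, against 7.3% of the genes it gave a p. The groups did not overlap for 10 of the 72, or 13.9%, against 17.6% of all genes.

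Among 11 translation factors tested, 3 estimates were above 0 and 8 below 0. At an unadjusted p under 0.05 there were 2 by edgeR, or 18.2%, against 10.8% of all genes. By DESeq2 there was 1, against 7.3% of all genes it gave a p and 1642 of the 16297 genes tested with edgeR. MTFMT, which puts the formyl group on the initiator tRNA, had 11.0, 12.2 and 13.4 CPM in neg.si and 8.69, 8.51 and 8.78 CPM in RIPK4.si. The groups were apart, and the log2 fold change was -0.50 (standard error 0.166, edgeR adjusted p = 0.281). GFM1, the elongation factor that moves the ribosome along the message, had 92.7, 94.9 and 98.8 CPM in neg.si and 76.3, 80.5 and 73.0 CPM in RIPK4.si. Its groups were apart too, with a log2 fold change of -0.32 (standard error 0.134, edgeR adjusted p = 0.426).

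Of the 9 regulators, 6 had an estimate above 0 and 3 below. At an unadjusted p under 0.05 there was 1 by edgeR, or 11.1%, against 10.8% of all genes. By DESeq2 there was also 1, against 7.3% of the genes it gave a p. PPARGC1B, a coactivator of genes for mitochondrial biogenesis, had 9.59, 9.79 and 11.5 CPM in neg.si and 7.74, 3.88 and 6.75 CPM in RIPK4.si, which is -0.75 on the log2 scale (standard error 0.257, edgeR adjusted p = 0.294), and -0.50 without RIPK4.si replicate 2. Its relative PPARGC1A, known in melanoma as a target of MITF, had 15.9, 16.7 and 19.6 CPM in neg.si and 13.4, 11.3 and 15.6 CPM in RIPK4.si, or -0.37 as a log2 fold change (edgeR adjusted p = 0.526). With 1 library left out PPARGC1A ran from -0.49 to -0.25. For both coactivators every RIPK4.si library was below every neg.si library. They were the 2 regulators with groups apart, or 22.2%, against 17.6% of all genes tested. PPRC1, another gene of the list, had 38.1, 37.8 and 39.8 CPM in neg.si and 44.1, 38.7 and 42.7 CPM in RIPK4.si. Its groups overlapped and its log2 fold change was 0.12 (edgeR adjusted p = 0.882). MITF itself had 291, 356 and 396 CPM in neg.si and 347, 349 and 378 CPM in RIPK4.si, with overlap.

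Among 18 genes for expression of the mitochondrial genome, 7 estimates were above 0 and 11 below 0, with 1 at an unadjusted p under 0.05, or 5.56%, against 10.8%, by edgeR and 0 by DESeq2, against 7.3%. MTERF1, a factor that ends mitochondrial transcription, had 27.6, 27.2 and 32.0 CPM in neg.si and 21.7, 22.0 and 24.0 CPM in RIPK4.si, or -0.36 as a log2 fold change (edgeR adjusted p = 0.434). POLG, the polymerase of the mitochondrial genome, had 41.6, 37.0 and 29.1 CPM in neg.si and 42.9, 50.3 and 46.1 CPM in RIPK4.si, or 0.37 as a log2 fold change (edgeR adjusted p = 0.492), and 0.24 without neg.si replicate 3. The groups were apart in both genes, in opposite directions.

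The 28 assembly factors tested had 12 estimates above 0 and 16 below 0, and 0 were at an unadjusted p under 0.05 with edgeR (against 10.8% of all genes) and 1 with DESeq2 (against 7.3%). MRM1, which methylates the large ribosomal RNA, had 6.20, 4.03 and 3.02 CPM in neg.si and 6.99, 5.26 and 8.23 CPM in RIPK4.si, with overlapping groups and an edgeR adjusted p of 0.486. GTPBP10, a GTPase of large subunit maturation, had 26.9, 34.4 and 39.5 CPM in neg.si and 23.2, 28.6 and 26.4 CPM in RIPK4.si, with overlap and an adjusted p of 0.536. The 6 ribosomal proteins with other names had a median log2 fold change of -0.03. PTCD3, a small subunit protein, had an estimate of -0.13 (edgeR adjusted p = 0.868), from -0.18 to -0.06 with 1 library left out, the value nearest 0 being without RIPK4.si replicate 1. It was -0.08 without neg.si replicate 2 or replicate 3. CHCHD1, also of the small subunit, had -0.04 (edgeR adjusted p = 0.976).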

How the data were processed

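Per the study's methods and the labels, poly(A) RNA of each library was sequenced as read pairs. The authors removed adapters (Cutadapt), mapped the reads to GRCh38.p13 (TopHat) and had HTSeq count pairs on each gene, ignoring strand. The deposited counts are whole read pairs per gene for 24526 genes with at least 6 counts over the 6 libraries. The table also holds counts divided by size factors and the authors' own DESeq2 fold changes and p-values, which were not used here.

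The counts were tested with edgeR 4.0.16 in R 4.3.3 (TMM, filterByExpr, quasi-likelihood test of group, Benjamini-Hochberg adjustment over 16297 genes, called at an adjusted p under 0.05). The standard error was the log2 fold change divided by the square root of F. Fold changes are RIPK4.si over neg.si. The study used DESeq2, which served here as an alternative (1.42.0). The code was tested on simulated data. Transcript lengths, GC content and overlaps came from GENCODE release 44, in which 24416 identifiers were found and 66 of the 77 members had the same coordinates. Levels between genes were CPM per kilobase of the main transcript.

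The members and gene lists were chosen with earlier results of these data known. Named members were those called, the 5 higher and 5 lower with the smallest p, the 3 highest and 3 lowest in level, and those overlapping another gene. For each partner list, the 2 with the smallest p were named. MRPS31, MRPS34, MRPS36, MRPL12, MRPL54 and PPRC1 were named after their values were seen, and MRPL22, MRPL32 and MRPL52 for a promoter motif. Alternatives were other size factors, other filters, a replicate block, each library left out and GC trends removed (lowess, span 0.3). Removal of the length trend, alone or with the GC trend, was added after the data were seen. The study calls the libraries of a group biological replicates, and p-values measure the spread between these libraries. Replicates of a group differed by more than counting noise.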

Additional observations from a re-analysis of the deposited data

How the results depend on the processing

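The count of members called was 0 with DESeq2, with either of 2 other normalizations in edgeR (the size factors of DESeq2, and the upper quartile), with no filter, with at least 10 counts in every library, with any library left out and with the GC or length trend removed. The exception was the fit with both GC and length trends removed, added after the data were seen, with 1 member called, 1 of the small subunit (MRPS9, adjusted p = 0.0465). That fit called 719 genes in all, against 125 in the fit reported, 430 with DESeq2, 575 with the GC trend removed, 501 with the GC trend removed and a replicate block, and 196 with the length trend removed. With 1 library left out, from 0 to 295 genes were called. Where 0 genes were called, the count of 0 members was fixed by that. The log2 fold change of RIPK4 ran from -2.06 to -1.74 over the libraries left out, and its adjusted p was 0.106 without neg.si replicate 2 and 0.0940, 0.0622 and 0.0725 without RIPK4.si replicates 1, 2 and 3. CHCHD1 ran from -0.17 to 0.0997, the highest without neg.si replicate 1, and it was 0.0504 when RIPK4.si replicate 1 was left out. The members' share of counts outside the mitochondrial genome was 0.365% in RIPK4.si and 0.364% in neg.si.

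The labels do not say whether libraries of the same number belong together, and the paper's captions speak of 3 independent experiments. Deviations from the group means correlated at -0.24, 0.25 and 0.35 for numbers 1, 2 and 3, and not every library correlated best with its own number. Whether the libraries are paired was therefore left undecided. With a replicate block, 0 members were called, 3 had an unadjusted p under 0.05 (3.90%, against 10.6% of all genes), the median log2 fold change was 0.01 and 131 genes were called in all. Members without exon overlap, 37 in number, had a median of -0.02 and 1 gene at an unadjusted p under 0.05 (2.70%, against 10.8% of all genes in the fit reported). Depth limits MRPL53 most, the only member with fewer than 10 counts in a library.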
